A study of Mus musculus with 27 samples.

Results

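The citric acid cycle enzymes were represented by 9 genes, Cs, Idh3a, Idh3b, Idh3g, Ogdh, Sucla2, Suclg1, Fh1 and Mdh2, taken by gene symbol from a table of 54532 genes, in which each symbol had a single row. All 9 passed the filter on low values and were among the 14630 genes tested. The samples were whole tibialis anterior muscles of 8-week-old male C57BL/6 mice, sequenced as polyA RNA without strand information. There were 5 muscles without injury, and 5, 6, 6 and 5 muscles taken at 3, 7, 14 and 21 days after volumetric muscle loss (VML), in which 40% of the muscle was cut out. All groups were of the same strain and received no other treatment named in the labels. GEO's record describes the excision as unilateral and the study's methods as bilateral, and neither says whether samples of a group shared a mouse. The p-values therefore measure the spread between these samples.

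The citric acid cycle oxidizes the acetyl group of acetyl-CoA in the mitochondrial matrix and passes the electrons to the respiratory chain as NADH and FADH2. Muscle fibres are rich in mitochondria, and citrate synthase is widely used as a marker of their mitochondrial content. Cs encodes citrate synthase, which joins acetyl-CoA to oxaloacetate. Idh3a, Idh3b and Idh3g encode the subunits of the NAD-dependent isocitrate dehydrogenase, of which the alpha subunit is catalytic. Ogdh encodes the first component of the 2-oxoglutarate dehydrogenase complex. Suclg1 encodes the alpha subunit of succinyl-CoA synthetase and Sucla2 its ADP-forming beta subunit. Fh1 encodes fumarate hydratase, and Mdh2 the mitochondrial malate dehydrogenase that regenerates oxaloacetate.

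The recovered reads totalled 14376395 to 24436763 per sample (median 17398586), and a cycle gene had 1922 to 23801 reads in a sample. FPKM is a gene's reads per unit of its length, scaled by a number of reads set for each sample. The number of reads to which the deposited FPKM had been scaled was not the sample's own total but 0.747 to 1.48 times that total, with a mean of 0.782 times in the uninjured group and 1.25 times at day 3, so that changes on this scale depend on that scaling. In 9 of the 27 samples, the profile of the tested genes lay nearer to the mean of another group than to that of its own. Among them, replicate 5 of day 3 lay nearest the day 7 mean and replicate 5 of day 7 nearest the day 3 mean. Leaving out both changed no count of called cycle genes in the comparisons on the deposited scale by more than 1.5 times.

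On the deposited scale all 9 genes fell after VML, most of all at day 3. All 9 had higher means at day 21 than at day 3, and for 7 of them the rise was called. None reached its uninjured mean on that scale at any time point. The day 3 means were 37.8% to 48.0% of the uninjured mean, and the day 7 means 46.4% to 54.0%. The day 14 means were 52.4% to 71.9% and the day 21 means 62.0% to 79.8% of it. The level of each gene in every sample is plotted by group.

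**Figure D1:**
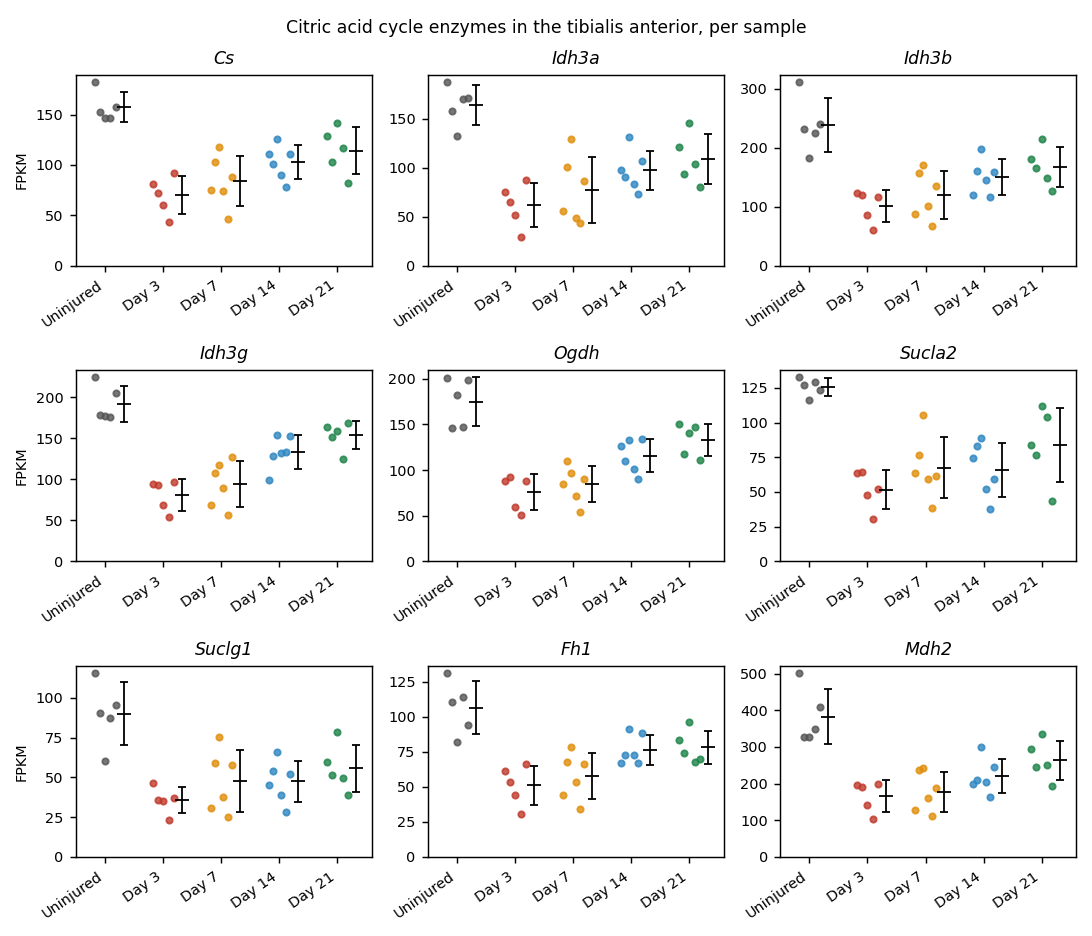
FPKM of the 9 citric acid cycle genes (vertical axis, from 0, 1 panel per gene) in each sample of the 5 groups (horizontal axis), with the mean and SD of the group as a black bar to the right of its points. Every day 3 sample lay below every uninjured sample in all 9 panels, and the day 21 samples of 3 genes, Cs, Idh3g and Sucla2, still did.

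In the uninjured muscles, FPKM of Cs was 183, 153, 147, 147 and 157 in replicates 1 to 5. It was 81.3, 72.5, 60.4, 43.7 and 92.2 at day 3. At day 7 it ranged from 46.6 to 118 with a median of 81.8, and at day 14 from 78.4 to 126 with a median of 106. The day 21 muscles had 128, 103, 141, 117 and 82.1. No sample at any time point after VML reached the lowest uninjured sample. Citrate synthase mRNA fell by 1.19 on the log2 scale at day 3 (SE 0.213, limma, adjusted p = 9.43e-05), by 0.95 at day 7 (SE 0.204, adjusted p = 0.00164) and by 0.62 at day 14 (SE 0.204, adjusted p = 0.0332). These are differences of log2(FPKM + 1), as are all fold changes below, and each time point was compared with the same 5 uninjured samples. At day 21 the difference was -0.47 (SE 0.213, adjusted p = 0.211).

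Among the subunits of isocitrate dehydrogenase, Idh3a, the catalytic subunit, had the lowest log2 fold change of the 9 genes at day 3. Its FPKM was 187, 158, 133, 169.9 and 171 in the uninjured muscles and 75.2, 65.5, 51.7, 29.01 and 87.7 at day 3. Every day 3 value was below every uninjured one, and the fall was 1.47 on the log2 scale (SE 0.274, adjusted p = 0.000146). Idh3a then rose from a mean of 61.8 ± 22.6 FPKM at day 3 (SD, n = 5) to 109 ± 25.3 at day 21 (SD, n = 5). Idh3b had 312, 232, 183, 225 and 241 FPKM without injury and 124, 120.4, 86.0, 60.9 and 116 at day 3, a fall of 1.25 on the log2 scale (SE 0.237, adjusted p = 0.000168). Idh3g had 224, 178, 176, 176 and 205 FPKM without injury and 94.2, 93.5, 68.1, 53.5 and 96.7 at day 3, a fall of 1.26 (SE 0.199, adjusted p = 2.56e-05). Neither gene's day 3 values overlapped the uninjured ones. By day 21 Idh3g was at 79.8% of its uninjured mean, the largest share among the 9 genes, with 163, 151, 159, 125 and 168 FPKM, and the difference of -0.32 did not pass the test (SE 0.199, adjusted p = 0.377).

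The starts of the Idh3b and Idh3g genes are shown because these 2 subunits of one enzyme were the cycle genes that shared a match to CCGGAAG, the core bound by ETS factors, and the start of Cs is shown as that of the cycle's first enzyme. The windows are from RefSeq on GRCm38.p6 and run from 250 bases before a transcript's start to 50 bases after it, 5′ to 3′ on the gene's strand, with matches on either strand in capitals. The windows are chr2:130284402-130284701 on the minus strand for Idh3b, chrX:73786848-73787147 on the minus strand for Idh3g and chr10:128337477-128337776 on the plus strand for Cs. The capitals mark CCGGAAG in Idh3b, read there on the opposite strand, CCGGAAG and AAGATGGC, a YY1 motif, in Idh3g, and the GC box GGGCGG in Cs.
Idh3b: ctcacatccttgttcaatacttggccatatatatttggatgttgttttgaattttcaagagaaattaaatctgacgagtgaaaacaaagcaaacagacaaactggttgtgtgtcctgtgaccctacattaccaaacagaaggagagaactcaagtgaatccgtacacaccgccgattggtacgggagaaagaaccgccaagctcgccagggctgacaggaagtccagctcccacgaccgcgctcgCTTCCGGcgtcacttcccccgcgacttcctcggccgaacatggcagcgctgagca
Idh3g: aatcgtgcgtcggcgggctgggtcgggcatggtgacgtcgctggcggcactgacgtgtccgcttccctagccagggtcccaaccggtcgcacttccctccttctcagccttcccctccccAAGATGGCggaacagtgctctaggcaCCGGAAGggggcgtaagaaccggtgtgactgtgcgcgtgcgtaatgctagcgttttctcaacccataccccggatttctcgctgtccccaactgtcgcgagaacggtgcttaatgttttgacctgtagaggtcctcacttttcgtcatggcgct
Cs: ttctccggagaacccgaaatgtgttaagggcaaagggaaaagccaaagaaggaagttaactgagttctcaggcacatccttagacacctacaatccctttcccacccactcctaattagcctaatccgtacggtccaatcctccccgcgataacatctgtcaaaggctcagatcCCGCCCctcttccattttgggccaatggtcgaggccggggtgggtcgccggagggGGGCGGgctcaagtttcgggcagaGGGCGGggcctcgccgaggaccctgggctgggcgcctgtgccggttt
Of the 9 genes, 7 had a window within 500 bases of the gene start in the deposited table. CCGGAAG was in 2 of these 7 windows and in 8.86% of all 32817 windows of the same length, the GC box in 4 of 7 and in 35.6%, and AAGATGGC in 1 of 7 and in 2.74%. Of the other 2 motifs searched, neither the NRF1 core GCATGCGC, in 2.71% of all windows, nor the ERR site AAGGTCA, in 4.72%, was in any of the 7. The motifs do not overlap in the 3 windows printed.

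Ogdh had 201, 146, 183, 147 and 199 FPKM in the uninjured muscles and 88.2, 92.9, 59.3, 50.6 and 88.0 at day 3, with no overlap. The mRNA of this entry component of the 2-oxoglutarate dehydrogenase complex fell by 1.22 on the log2 scale at day 3 (SE 0.190, adjusted p = 2.13e-05) and by 1.06 at day 7 (SE 0.182, adjusted p = 0.000248). It fell by 0.59 at day 14 (SE 0.182, adjusted p = 0.0225), and the difference at day 21 was -0.39 (SE 0.190, adjusted p = 0.259).

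Both subunit genes of succinyl-CoA synthetase stayed nearly as low at day 14 as at day 7. Sucla2 had 133, 127, 116, 129.5 and 123 FPKM without injury, the tightest uninjured group of the 9 genes (coefficient of variation 5.06%), and 63.8, 64.2, 47.7, 30.8 and 52.4 at day 3. Its fall measured 1.31 on the log2 scale at day 3 (SE 0.263, adjusted p = 0.000305), 0.95 at day 7 (SE 0.251, adjusted p = 0.00686) and 0.98 at day 14 (SE 0.251, adjusted p = 0.00843). Its highest value at any time point after VML, 112 FPKM in replicate 3 of day 21, was below its lowest uninjured value. Suclg1 had 116, 90.6, 60.5, 87.4 and 95.8 FPKM without injury and 46.2, 36.0, 35.1, 23.1 and 37.1 at day 3. It fell by 1.32 at day 3 (SE 0.265, adjusted p = 0.000302), by 0.97 at day 7 (SE 0.253, adjusted p = 0.00605) and by 0.93 at day 14 (SE 0.253, adjusted p = 0.012). At day 21 it was at 62.0% of its uninjured mean, the lowest share among the 9 genes, and the difference of -0.69 did not pass the test (SE 0.265, adjusted p = 0.145).

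Fh1 had the smallest fall at day 3. Its FPKM was 132, 110.5, 82.2, 114 and 94.1 without injury and 61.4, 53.2, 43.9, 30.7 and 66.2 at day 3, again without overlap, a fall of 1.08 on the log2 scale (SE 0.206, adjusted p = 0.000195). Fumarate hydratase mRNA was the only one of the 9 that was not called at day 14 (-0.46, SE 0.197, adjusted p = 0.0954), and when each sample's FPKM was scaled to one common sum that difference was 0.010.

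Mdh2 was the most abundant of the 9 genes in every group, with 502, 327, 328, 347 and 409 FPKM without injury and 196, 190.4, 141, 103 and 199 at day 3. Its fall was 1.22 on the log2 scale at day 3 (SE 0.228, adjusted p = 0.000148), 1.14 at day 7 (SE 0.218, adjusted p = 0.000652) and 0.80 at day 14 (SE 0.218, adjusted p = 0.0119). At day 21 the difference was -0.54 (SE 0.228, adjusted p = 0.184).

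The order of the levels was nearly the same in every group. In the uninjured muscles the mean FPKM ran from Mdh2 (383 ± 74.6, SD, n = 5) through Idh3b (239), Idh3g (192), Ogdh (175), Idh3a (164), Cs (157), Sucla2 (126) and Fh1 (107) to Suclg1 (90.0 ± 19.8, SD, n = 5). Mdh2 exceeded Idh3b, and Cs exceeded Sucla2, without overlap of their ranges. The ranges of every other pair of neighbours in that order overlapped. Mdh2, Idh3b, Idh3g and Ogdh kept the first places in that order at each time point, and Suclg1 the last. Cs stood above Idh3a at all 4 time points after VML and below it without injury, and Fh1 passed Sucla2 at day 14.

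At day 3 all 9 genes were called lower, where 19.8% of all tested genes were. At day 7 all 9 were again called lower, against 14.4% of all tested genes, and at day 14 there were 8 against 11.3%. None was called at day 21 by limma, against 1.69% of all tested genes called lower. Of the 9, 7 had an unadjusted limma p under 0.05 at day 21, for which the share of all tested genes was not computed. Every day 3 sample was below every uninjured sample for 9 genes, as it was for 16.5% of all tested genes. The same held for 8 genes against 5.37% at day 7, for 6 against 8.05% at day 14, and for 3 against 5.13% at day 21. The median log2 fold change of the 9 was -1.25, -1.04, -0.67 and -0.51 at days 3, 7, 14 and 21, beside medians of 0.01, 0.03, 0.02 and 0.01 over all tested genes. The count at day 14 depended on single samples. It was 3 without uninjured replicate 1 or 5 or day 14 replicate 4 or 5, 4 without uninjured replicate 2, and 5 without uninjured replicate 4 or day 14 replicate 1.

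Between day 3 and day 21, 7 of the 9 genes were called higher, as were 9.23% of all tested genes. The rise was 0.94 on the log2 scale for Idh3g (SE 0.199, adjusted p = 0.00121), 0.84 for Ogdh (SE 0.190, adjusted p = 0.00214), and 0.64 to 0.87 for Cs, Idh3a, Idh3b, Fh1 and Mdh2. The 2 succinyl-CoA synthetase genes did not pass, with 0.66 for Sucla2 (SE 0.263, adjusted p = 0.0656) and 0.63 for Suclg1 (SE 0.265, adjusted p = 0.0794). The count fell to 3 without day 3 replicate 3, to 2 without day 3 replicate 4 and to 3 without day 21 replicate 3.

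The scale on which samples were compared changed these calls. When each sample's FPKM was scaled to one common sum, the median of all tested genes moved to 0.51, 0.48, 0.29 and 0.12 at days 3, 7, 14 and 21, and the median of the 9 genes to -0.43, -0.31, -0.19 and -0.31. Relative to all tested genes the 9 then lay lower by a median of -0.94, -0.79, -0.48 and -0.43. On that scale Idh3a (-0.66, adjusted p = 0.0361) and Idh3g (-0.44, adjusted p = 0.0206) were called lower at day 3, and no cycle gene was called at days 7, 14 or 21 or between days 3 and 21. Of all 14630 tested genes, 7190, 6513, 1785 and 49 were called there in either direction at days 3, 7, 14 and 21, and 5010 between days 3 and 21. The median of the 9 at day 21 minus day 3 was then 0.10. With common sums Sucla2 was lowest at day 14 (-0.50) and Mdh2 at day 7 (-0.42), beside -0.49 and -0.40 at day 3. With each sample's own total of reads as the denominator, an alternative chosen after seeing the data, 9 were called lower at day 3, 5 at day 7 and 0 at days 14 and 21. Between days 3 and 21, 1 was then called higher. Of all tested genes, 7152, 5772, 2563 and 133 were then called in either direction at days 3, 7, 14 and 21, and 4798 between days 3 and 21. On both alternative scales the part of all tested genes called in the direction of the cycle genes is not reported here. The counts in either direction are therefore no direct background for the cycle genes called. The cycle genes stayed below uninjured muscle in each of these comparisons except for Fh1 at day 14.

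On the deposited scale the samples of a group were high or low for the cycle genes together. Replicate 1 had the highest uninjured value of all 9 genes, replicate 4 of day 3 the lowest day 3 value of all 9, and replicate 5 of day 7 the lowest day 7 value of all 9. At day 14 replicate 5 was lowest for 8 genes and replicate 3 highest for 8. At day 21 replicate 5 was lowest for 7 genes and yet highest for Idh3g. The median coefficient of variation of the 9 genes was 15.4% without injury and 26.5%, 30.6%, 20.2% and 20.2% on days 3, 7, 14 and 21. Over the 27 samples, the correlation of a pair of cycle genes ranged from 0.70 for Idh3g and Sucla2 to 0.98 for Idh3b and Mdh2. The points share the same libraries, groups and scaling numbers, and the correlations are a description.

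The whole muscle holds many cell types, and in such bulk samples fewer muscle fibres and less of an mRNA per fibre cannot be told apart. The tissue label fitted the markers, since the 10 genes of the myofibre list, such as Ckm, Acta1 and the fast troponins Tnnt3 and Tnni2, summed to 84845 to 99654 FPKM without injury. Tnnc2, the fast troponin C of the list, was the exception, at 0.0854 to 0.944 FPKM in uninjured muscle and at group means of 0.297 to 0.466 FPKM throughout. The sum was between 23928 and 66539 at day 3 and lay between 28895 and 96614 at day 7. It ranged from 46280 to 101581 among the day 14 samples and from 73456 to 94248 among those of day 21. Of the 10 markers, 9, 4, 1 and 0 were called lower on days 3, 7, 14 and 21 (limma, adjusted over all tested genes), while Tnnc2 was not called at day 3 (-0.10, adjusted p = 0.77). The 1 marker called at day 14 was Ckm (-1.08, SE 0.319, adjusted p = 0.0184). On the scale of common FPKM sums 3 of the 10 were called lower at day 3, and the difference of Acta1 turned from -0.77 to 0.05. The 2 samples lowest in the mean of the cycle genes among all 27, replicate 4 of day 3 and replicate 5 of day 7, were also the 2 lowest in the mean of the myofibre markers, in the same order.

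**Figure D2:**
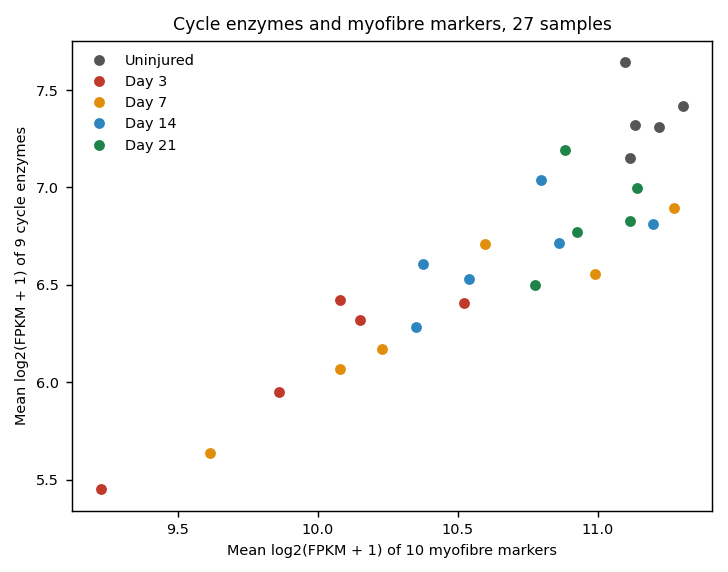
Mean log2(FPKM + 1) of the 9 citric acid cycle genes (vertical axis) against that of 10 myofibre markers (horizontal axis) in the 27 samples, each a point coloured by group. Points low on one axis were low on the other, from 5.45 and 9.22 in replicate 4 of day 3 to 7.42 and 11.30 in uninjured replicate 5, and uninjured replicate 1 stood highest on the vertical axis at 7.64. Both axes are on the deposited scale and share each sample's scaling number.

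Measured against the mean of the 10 myofibre markers in the same sample, the cycle genes showed smaller differences from uninjured muscle. The median of the 9 differences was -0.05, -0.33, -0.18 and -0.30 on the log2 scale on days 3, 7, 14 and 21, beside 1.22, 0.74, 0.51 and 0.22 for all tested genes. At day 3 they ranged from -0.27 for Idh3a to 0.13 for Fh1. The mean of the markers included Tnnc2, and without it the median turned to 0.08 at day 3 and was -0.26, -0.13 and -0.27 on days 7, 14 and 21. None of the 9 was lower relative to the markers at day 3, where 0.308% of all tested genes were, none at day 14 against 0.506% and none at day 21 against 0.041%. At day 7, where 1.03% of all tested genes were called lower, Idh3a was called (-0.46, SE 0.185, limma, adjusted p = 0.0376) and Mdh2 came next (-0.43, adjusted p = 0.0503). The call of Idh3a was lost when a single sample was left out, with counts of 0 to 2, among them 0 without uninjured replicate 1, 4 or 5 or day 7 replicate 1, 4, 5 or 6. It was lost too with 5 contractile markers in place of the 10 and with the markers other than Tnnc2. At day 21 the largest differences were -0.48 for Suclg1 (adjusted p = 0.549) and -0.44 for Sucla2 (adjusted p = 0.665).

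**Figure D3:**
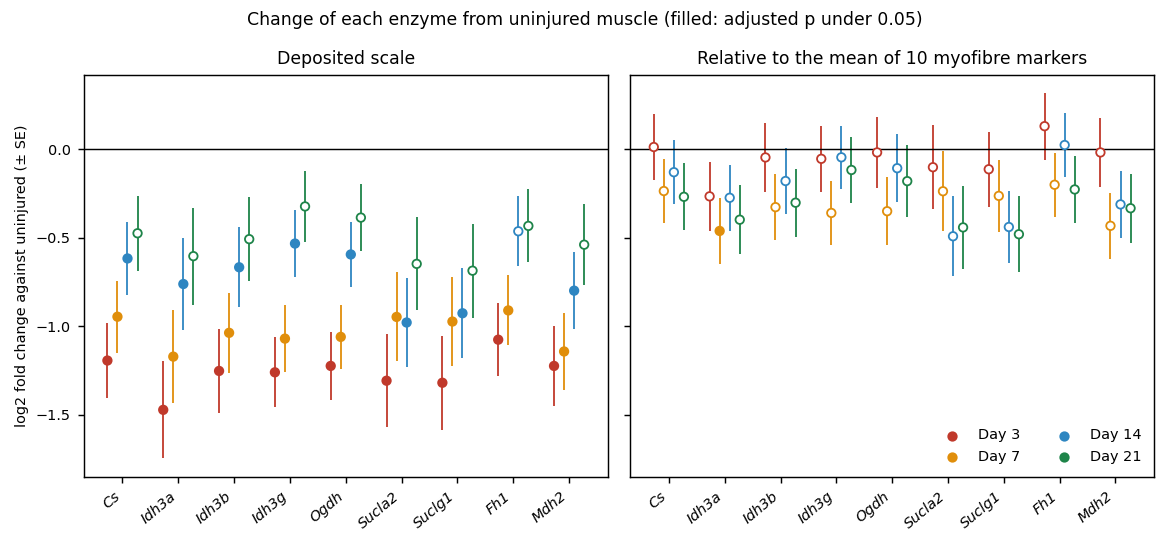
Log2 fold change from uninjured muscle (vertical axis, with SE) of the 9 citric acid cycle genes (horizontal axis) at days 3, 7, 14 and 21, on the deposited FPKM scale (left) and relative to the mean of 10 myofibre markers (right). Filled points had an adjusted p under 0.05, which held for 9, 9, 8 and 0 genes on the left and for Idh3a at day 7 on the right; on a scale of common FPKM sums the difference of Fh1 at day 14 was 0.010.

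Markers of immune cells, fibroblasts and myoblasts moved in the opposite direction. The 7 monocyte and macrophage genes, such as Cd68 and Lyz2, summed to between 17.1 and 25.3 FPKM in uninjured samples and to between 317 and 2151 in those of day 3. Day 7 sums spread from 47.6 to 2021, day 14 sums from 44.4 to 105 and day 21 sums from 31.6 to 58.2. On days 3, 7, 14 and 21, 7, 6, 2 and 0 of the genes were called higher. The highest sums at day 3 and at day 7 were in replicate 4 of day 3 and replicate 5 of day 7, where the cycle genes were lowest on the deposited scale. The 5 fibroblast and fibro-adipogenic progenitor genes summed to 44.7 to 115 FPKM without injury and 390 to 799 at day 3. By limma 4, 4, 4 and 2 of them were called higher on days 3, 7, 14 and 21, those at day 21 being Col1a1 (1.44, adjusted p = 0.0392) and Col3a1 (1.61, adjusted p = 0.0195). The 5 satellite cell and myoblast genes summed to 17.1 to 26.3 without injury and 98.2 to 385 at day 3. By limma 4, 3, 3 and 3 of these were called higher on the same days, with Myod1 (1.37, adjusted p = 0.023), Myog and Mymk still higher at day 21. On the scale of common FPKM sums none of the genes of these 2 lists was called at day 21. Of the 5 neutrophil genes 3 were tested, and these 3 were called higher at day 3. The sums over all 5 were 0.456 to 3.93 without injury and 19.2 to 37.6 at day 3, and Ly6g was listed at 0 in every sample outside day 3. Endothelial sums were 59.3 to 72.4 without injury and 40.3 to 89.5 at day 3, adipocyte sums 54.9 to 105 and 51.4 to 115, and T lymphocyte sums 0.252 to 0.985 and 0.203 to 2.59, with Cd3d at 0 in all uninjured samples. Of the endothelial genes, Kdr (-1.33) and Tek (-0.57) fell at day 3. With common FPKM sums the difference of Tek turned to 0.07 and Pecam1 was called higher (0.80, adjusted p = 0.0336). None of the 4 adipocyte genes was called by limma at day 3, whereas Adipoq (2.23), Plin1 (1.17) and Cidec (1.64) rose at day 7 (adjusted p = 0.00596, 0.00551 and 0.00914). Fabp4 was, with common FPKM sums, called higher at day 3 (0.57, adjusted p = 0.0387) and day 14 (0.75, adjusted p = 0.0271). The 1 tested T lymphocyte gene, Cd2, was not called at any of the 4 times. The part of these cells in the fall of the cycle genes was not tested beyond the comparison with the myofibre markers.

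Within the enzymes, the balance of subunits and of isoforms was compared as the difference of 2 genes' log2(FPKM + 1) in the same sample, which does not depend on the scaling between samples beyond the pseudocount. None of 16 such comparisons passed an exact permutation test after adjustment over the 16, and 2 of them had an unadjusted p under 0.05. Both were of Sucla2, the ADP-forming beta subunit, to Suclg2, the GDP-forming one. Ratios below are geometric means over a group, with 1 added to each FPKM. The ratio of Sucla2 to Suclg2 was 9.29 without injury and 5.61 at day 3, a difference of -0.73 on the log2 scale. All 5 day 3 samples were below all 5 uninjured samples (two-sided exact permutation p = 0.00794, the smallest that 5 against 5 allows, adjusted p = 0.0635). At day 14 it was 7.40, lower by -0.33, with 5 of 6 samples below all uninjured samples (exact permutation p = 0.00649, adjusted p = 0.0635). With 5 samples against 5, 1 ratio alone could not reach an adjusted p under 0.05 over the 16, however well separated. The 2 other ratios within an enzyme, of Idh3b and of Idh3g to Idh3a, were 1.44 and 1.17 without injury and 1.68 and 1.36 at day 3, higher by 0.22 and 0.21 (exact permutation p = 0.135 for each, adjusted p = 0.359). The ratio of mitochondrial Mdh2 to cytosolic Mdh1 was 0.847 without injury and 0.873 at day 3, a difference of 0.04 (exact permutation p = 0.833, adjusted p = 0.833).

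The other genes of the cycle, 9 partner subunits and enzymes, moved in the same direction. Called lower by limma were 9, 9, 7 and 0 of them on days 3, 7, 14 and 21, with medians of -0.92, -0.93, -0.84 and -0.53. At day 3 the change ranged from -1.40 for Sdhb, the iron-sulphur subunit of succinate dehydrogenase (SE 0.286, adjusted p = 0.000352), to -0.58 for Suclg2 (SE 0.170, adjusted p = 0.00735). Idh2, the NADP-dependent mitochondrial isocitrate dehydrogenase, was called lower at day 3 as well (-0.80, SE 0.219, adjusted p = 0.00438), but on the scale of common FPKM sums the differences of Idh2 and Suclg2 turned to 0.00 and 0.17. At day 21 the highest value was that of Sdhc (-0.31, adjusted p = 0.439). Sdhb was among the 2 not called at day 14 (-0.74, adjusted p = 0.058).

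The 13 genes of pyruvate entry, which carry pyruvate into the mitochondrion, convert it to acetyl-CoA or regulate that step, included 11, 10, 7 and 1 called lower on days 3, 7, 14 and 21, with medians of -1.06, -0.88, -0.69 and -0.49. With common FPKM sums 1, 1, 0 and 0 were called lower on these days. Pdk4, a kinase that inhibits pyruvate dehydrogenase, had the lowest value at day 3 (-1.62, SE 0.274, adjusted p = 5.52e-05) and was the 1 gene called at day 21 (-0.98, SE 0.274, adjusted p = 0.045). Both calls of Pdk4 were lost with common FPKM sums, at -0.81 (adjusted p = 0.111) and -0.79 (adjusted p = 0.558). Its mean FPKM was 70.0 in uninjured muscle, 22.4 on day 3 and 35.5 on day 21. Pdk3, a kinase of the same family, rose at day 3 from 0.431 to 2.61 FPKM (1.33, SE 0.267, adjusted p = 0.000302) and was called higher at day 7 (0.86, SE 0.256, adjusted p = 0.0145). The difference of Pdpr at day 3 was -0.39 (adjusted p = 0.426).

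Of 11 genes of anaplerosis and of cytosolic counterparts of cycle enzymes, 6, 6, 4 and 0 were called lower and 2, 1, 0 and 0 higher by limma on days 3, 7, 14 and 21. With common FPKM sums the balance at days 3 and 7 turned, with 1, 2, 2 and 0 called lower and 4, 4, 0 and 0 higher. Me2, the mitochondrial NAD-dependent malic enzyme, rose at day 3 from 1.07 to 7.45 FPKM (1.99, SE 0.326, adjusted p = 3.96e-05), and Idh1, the cytosolic isocitrate dehydrogenase, from 8.54 to 14.0 FPKM (0.63, SE 0.158, adjusted p = 0.00218). Me1, the cytosolic malic enzyme, had the lowest value of the list at day 3, with a fall of 1.52 (SE 0.343, adjusted p = 0.000936), and at day 21, where its difference was -0.99 (adjusted p = 0.104). Glud1, Aco1 and Acly were not called at day 3, with -0.17, 0.41 and 0.39 (adjusted p = 0.24, 0.104 and 0.119). With common FPKM sums Aco1 (1.08, adjusted p = 0.00653) and Acly (1.04, adjusted p = 0.00918) were called higher at day 3, and Glud1 turned to 0.62 (adjusted p = 0.0536). Me2 and Idh1 were higher at day 3 on the scale of common FPKM sums too, whereas the fall of Pcx at day 3 (-0.70), of Glud1 at days 7 and 14 (-0.33 and -0.42) and, in pyruvate entry, of Pdk1 at day 7 (-0.57) turned to 0.04, 0.38, 0.05 and 0.05.

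The 14 respiratory chain subunits moved in the same direction as the cycle genes. Called lower by limma were 14, 14, 11 and 0 on days 3, 7, 14 and 21, with medians of -1.21, -1.10, -0.74 and -0.44. They ranged from -1.42 for Uqcrc1 to -1.07 for Cox4i1 at day 3 and from -0.68 for Uqcrc2 to -0.24 for Cox6c at day 21. With common FPKM sums 3, 1, 0 and 0 of the 14 were called lower on these days, and 1, 1, 0 and 0 of the 9 cycle partners. Of the 8 muscle glycolysis genes, 7, 7, 4 and 0 were called lower on days 3, 7, 14 and 21, with medians of -1.33, -1.02, -0.71 and -0.32. These counts were 5, 1, 1 and 0 with common FPKM sums. They ranged at day 3 from -1.65 for Pfkm, muscle phosphofructokinase (SE 0.302, adjusted p = 0.000129), to -0.34 for Gapdh (adjusted p = 0.807). Gapdh was also the 1 not called at day 7 and had the highest value at day 21 (1.24, SE 0.979, adjusted p = 0.507), where Pfkm had the lowest (-0.60, adjusted p = 0.267).

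**Figure D4:**
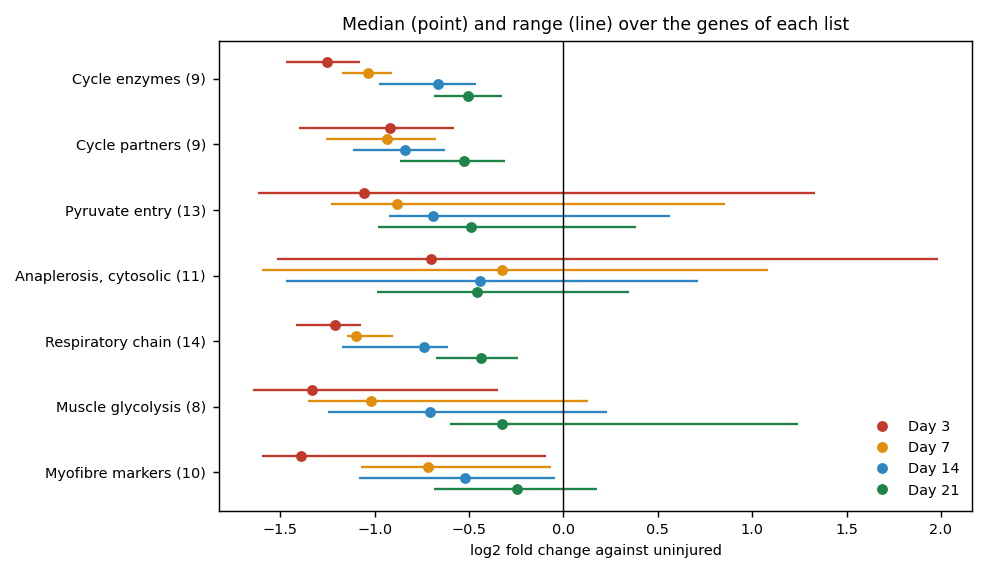
Median (point) and range (line) of the log2 fold change from uninjured muscle (horizontal axis) at days 3, 7, 14 and 21 over the genes of each list (vertical axis, with the number of genes). The cycle genes ran from medians of -1.25 to -0.51 and the respiratory chain from -1.21 to -0.44, with narrow ranges. Pyruvate entry and anaplerosis each held genes above 0 at every time point. Muscle glycolysis did at days 7, 14 and 21, with Gapdh highest, and the myofibre markers at day 21, with Mylpf highest (0.18). On the scale of common FPKM sums Idh2 and Suclg2 of the cycle partners lay above 0 at day 3.

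The tested genes outside the 9 whose profile over the 27 samples was most like the mean of the standardized cycle genes were Atp5a1 (r = 0.98), Coq10a (0.98), Atp5b (0.97), Ndufs1 (0.97) and Uqcrfs1 (0.97). Atp5a1 and Atp5b encode the alpha and beta subunits of ATP synthase. The mean FPKM of Atp5a1 was 1048 in uninjured muscle, 418 on day 3 and 715 on day 21. Coq10a, a coenzyme Q binding protein and the 1 of the 5 outside the lists, went from 257 to 76.8 and 153 FPKM. The likeness is a Pearson correlation on the deposited scale over samples that share their libraries and groups, and is a description.

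The genes lie on 9 chromosomes, and their positions and strands in the deposited table were those of GENCODE M21 on GRCm38 for all 9. Cs is at chr10:128337734-128362479 and Idh3a at chr9:54586334-54604661, both on the plus strand. Idh3b is at chr2:130279309-130284547 and Idh3g at chrX:73778963-73786897, both on the minus strand. Ogdh is at chr11:6291633-6356642, Sucla2 at chr14:73525319-73596142, Suclg1 at chr6:73248382-73276911 and Mdh2 at chr5:135778480-135790398 on the plus strand, and Fh1 at chr1:175600374-175625635 on the minus strand. Idh3b overlaps Nop56 and Fh1 overlaps Kmo, each on the opposite strand, and without strand information reads from such pairs cannot be told apart. The mean level of the partner was 8.70 to 10.5 FPKM for Nop56 and 0.0629 to 0.272 for Kmo over the 5 groups, beside 101 to 239 for Idh3b and 51.1 to 107 for Fh1.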

How the data were processed

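RNA of 27 tibialis anterior muscles was compared. The submitters' processing notes name HISAT2 2.0.5 and featureCounts 1.5.0-p3. The authors deposited 1 table of FPKM per gene and sample, computed by the authors from reads counted per gene and the gene length, which stands in bases in another column. The study's methods state that FPKM was normalized without giving the procedure, and FPKM times gene length gave whole reads (tolerance 0.05) for 100% of values above 0. Groups were read from sample titles.

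Of 54532 genes, the 14630 that reached an FPKM of 0.5 in 5 or more samples were analysed on the log2(FPKM + 1) scale by limma (version 3.58.1, R 4.3.3). One model held all 27 samples, a term for each group and a variance trend. Tests were two-sided, with Benjamini-Hochberg adjustment over all tested genes within a comparison at 0.05. Fits relative to the myofibre markers used the same model on differences from the mean of 10 markers. An exact permutation test adjusted over the members alone had been planned for these and was replaced, since the members were chosen with results known. Ratios of 2 genes used exact permutation tests adjusted over 16. The fit was tested on simulated data. Alternatives were other pseudocounts, filters, scalings, blocks, weights and samples. The members and all lists were chosen with earlier results of these data known. Named genes were the members, the genes of each list with the largest and smallest change at days 3 and 21 or a call unlike most of their list, and the 5 tested genes most like the members' mean. Of 2 rows for Aldoa the higher was used. Python 3.11.15, numpy 2.4.6, pandas 2.3.3 and matplotlib 3.10.9 were used for the rest. The columns of annotation were used for positions. Some results on single genes are not reported here.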

Additional observations from a re-analysis of the deposited data

Results flagged for a closer look

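The change of 7 cycle genes from uninjured muscle differed between day 21 and day 3 by the limma test of that difference. The day 21 level was higher by 0.72 on the log2 scale for Cs (adjusted p = 0.0149), 0.87 for Idh3a (adjusted p = 0.0214), 0.74 for Idh3b (adjusted p = 0.0223), 0.94 for Idh3g (adjusted p = 0.00121), 0.84 for Ogdh (adjusted p = 0.00214), 0.64 for Fh1 (adjusted p = 0.0234) and 0.69 for Mdh2 (adjusted p = 0.0284). With FPKM rescaled to a common sum, none of the 7 passed the test. Among the 45 sets of values of 1 cycle gene in 1 group, 0 had a sample far from the others by Dixon's criterion, which chance meets in about 1 of 20 groups.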

How the results depend on the processing

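With FPKM rescaled to a common sum, the cycle genes called were 2, 0 and 0 at days 3, 7 and 14 and 0 between days 21 and 3, and Fh1 at day 14 turned to 0.010. Without a filter on low values 4 were called at day 14, and with quantile normalization 0. These settings called 2205 and 2311 of all genes they tested at day 14, in either direction. Such counts, here and below, are no direct background for cycle genes called in 1 direction. With a sample's own total of reads, chosen after seeing the data, 5 were called at day 7, 0 at day 14 and 1 between days 21 and 3. At day 21 the count was 1 with only the 2 groups compared and 2 with sample quality weights, also added later. These fits called 1477 and 2471 of all tested genes at day 21 in either direction, against 502 in the main fit. The replicate block by letter gave 1 at day 21 and 4 between days 21 and 3, where 1233 and 2925 of all tested genes were called in either direction. The replicate block by number left the counts within 1.5 times except relative to the myofibre markers at day 7, where it gave 0. Of 51 pairs of samples with the same number, 15 correlated above 0.1 in their deviations (median -0.003). The pairs of days 7 and 14 ran from 0.09 to 0.57, and those of days 3 and 7 from -0.52 to 0.30. The numbers were not taken to pair samples, and whether days 7 and 14 shared a block was not tested. Relative to the myofibre markers at day 7 the count was also 0 with 5 contractile markers, with either set of markers without Tnnc2 (added later) and with the exact permutation test, and 2 without replicate 5 of days 3 and 7. The exact permutation test was adjusted over 9 genes and 4 time points, under which 1 gene alone could not have passed. Leaving out 1 sample at a time gave 9 at days 3 and 7, 3 to 8 at day 14, 0 at day 21, 2 to 8 between days 21 and 3, and 0 to 2 relative to the markers at day 7. It moved the ratio of Idh3g to Idh3a at day 7 between -0.0011 and 0.20, and that of Mdh2 to Mdh1 between -0.036 and 0.14 at day 3 and between -0.12 and 0.013 at day 21. The causes were not tested. Voom weights, other pseudocounts, an FPKM minimum of 1, median-ratio scaling and a fit without the trend kept all 5 counts within 1.5 times. Median-ratio scaling hardly altered the deposited values, with 6313 genes called at day 3 against 6316 in the main fit. It was therefore no separate check of the scaling. Each cycle gene had 1922 or more reads in each sample.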

Other observations

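Gapdh, often used as a reference gene, ranged from 15.7 to 713 FPKM in the 5 uninjured muscles and from 13.4 to 884 at day 14. It belongs to a family with near-identical copies, and how the counting divided their reads was not tested.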
